A study of Mus musculus with 12 samples.

Results

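The oocyte group of Nlrp genes was followed in mouse osteosarcoma cells kept in long-term culture. Its 10 members were Nlrp4a, Nlrp4b, Nlrp4c, Nlrp4e, Nlrp4f, Nlrp5, Nlrp9a, Nlrp9b, Nlrp9c and Nlrp14, out of 20144 genes that had a probe on the arrays. The group was picked because Nlrp4c had a higher signal in late than in early passage LM8 cells, so that all values of LM8 cells are given as a description without a test. All 10 genes were covered, by 16 of 39429 probes, and 9 of them lie on chromosome 7 and Nlrp4f on chromosome 13.

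The cells were Dunn, a mouse osteosarcoma line of low metastatic potential that the labels call osteoblastic, and LM8, a highly metastatic line selected from Dunn in mice. Early passage cells were at passage 25 for Dunn and passage 24 for LM8, and late passage cells at passage 86 for Dunn and passage 91 for LM8. All 4 groups were untreated and cultured in the same medium. Frozen aliquots had been thawed and grown for a few passages before RNA extraction, and each group was hybridized to 3 arrays, 1 on each of 3 slides. A line at a given passage is 1 culture lineage, and the position on the slide was the same for all arrays of a group, so that position and group cannot be told apart.

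NLRP proteins are cytoplasmic receptors of the NOD-like family with a nucleotide-binding domain and leucine-rich repeats, and several of them build inflammasomes. A further subgroup, of which the Nlrp4 branch multiplied in rodents, has another role. These genes are active in oocytes and early embryos, where Nlrp5, also called Mater, and Nlrp4f belong to the subcortical maternal complex that supports the first cleavages, and they are silent in most somatic tissues, including bone.

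The signal at the 75th percentile of an array ranged from 287 to 603 in early Dunn, 686 to 961 in late Dunn, 893 to 1316 in early LM8 and 1166 to 1903 in late LM8 cells, and levels below are therefore given on the log2 scale relative to this percentile. A probe was called well above background by the flag of the scanner software, and 39.1% to 59.7% of all probes passed on an array. Array 1 of the early Dunn cells had the lowest and array 1 of the late Dunn cells the highest share. On the latter array 1933 genes, 9.60% of all, were well above background that were below it on the other arrays of late Dunn cells. All 7 osteoblast markers with a probe (Runx2, Sp7, Col1a1, Col1a2, Alpl, Ibsp and Spp1) were well above background on every array with an unflagged spot.

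For Nlrp4c, Nlrp4e and Nlrp4f, the 250 bases before the annotated start are printed, together with those of Nlrp4a, which was not reliably detected but shares the longest stretch with Nlrp4c. They were taken from RefSeq for the assembly GRCm38.p6, are written 5′ to 3′ in the direction of the gene, and carry the E-box CANNTG, the core of the sites of basic helix-loop-helix factors such as the oocyte factor FIGLA, in capitals.
Nlrp4c, chr7:6044911-6045160, + strand: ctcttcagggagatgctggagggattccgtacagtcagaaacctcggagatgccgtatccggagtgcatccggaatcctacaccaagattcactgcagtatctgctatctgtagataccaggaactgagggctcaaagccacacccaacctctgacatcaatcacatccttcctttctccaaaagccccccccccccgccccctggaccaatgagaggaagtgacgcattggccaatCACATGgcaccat
Nlrp4e, chr7:23300942-23301191, + strand: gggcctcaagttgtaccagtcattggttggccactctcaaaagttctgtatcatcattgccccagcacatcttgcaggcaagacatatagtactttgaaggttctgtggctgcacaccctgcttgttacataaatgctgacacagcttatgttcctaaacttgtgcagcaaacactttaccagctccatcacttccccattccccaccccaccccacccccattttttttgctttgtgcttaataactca
Nlrp4f, chr13:65205717-65205966, - strand: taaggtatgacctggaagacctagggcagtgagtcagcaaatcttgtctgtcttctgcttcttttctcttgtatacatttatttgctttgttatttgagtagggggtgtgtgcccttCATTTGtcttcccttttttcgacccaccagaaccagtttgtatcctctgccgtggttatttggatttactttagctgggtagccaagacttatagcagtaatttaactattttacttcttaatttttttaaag
Nlrp4a, chr7:26435364-26435613, + strand: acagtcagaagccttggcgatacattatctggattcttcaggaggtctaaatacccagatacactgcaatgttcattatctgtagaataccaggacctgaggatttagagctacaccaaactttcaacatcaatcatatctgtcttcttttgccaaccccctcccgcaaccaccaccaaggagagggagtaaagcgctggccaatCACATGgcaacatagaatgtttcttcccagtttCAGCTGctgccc

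The region of Nlrp4c had 54.0% GC and 7 CpG dinucleotides, against medians of 52.4% and 6 over all 32851 promoters of the same length. That of Nlrp4f had 38.4% GC and 2 CpG, and that of Nlrp4e had 46.4% GC and no CpG. Among these 3 genes, all with higher signals in late LM8 cells, the number of CpG thus ran from 0 to 7. An E-box, searched as CANNTG, which reads the same on both strands, was present in 11 of the 12 promoters of the members, compared with 66.2% of all promoters. Counted by gene, with any annotated start, it was present in 8 of the 9 members with a promoter, which are all but Nlrp14. Nlrp4e was the member without it. The letters CACGTG, one form of the E-box, were absent from all 12 promoters, and were found in 6.02% of all promoters.

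Nlrp4c and Nlrp4a, whose second annotated start is shown, had the 17 bases tggccaatcacatggca in common, which begin 21 bases before the start of Nlrp4c and 53 bases before that of Nlrp4a. Nlrp4b shared 12 of these bases, ccaatcacatgg. Over the whole region, Nlrp4c was 57.2% identical to this start of Nlrp4a, 59.2% to one start of Nlrp4b, 47.8% and 47.9% to the other starts of these genes, 50.9% to Nlrp4e and 44.0% to Nlrp4f, while the median of 63 pairs of members was 50.5%.

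Detection differed between the groups. In early Dunn cells 1 of the 10 genes, Nlrp4f, was well above background on all 3 arrays, compared with 48.2% of all genes. In late Dunn cells there were 3 such genes, Nlrp4c, Nlrp4e and Nlrp4f, compared with 54.7% of all genes. None of the 10 reached this level in early LM8 cells, where 59.3% of all genes did, and 4, Nlrp4c, Nlrp4e, Nlrp4f and Nlrp14, reached it in late LM8 cells, where 61.1% of all genes did. In all 4 groups the share among the members was below that of all genes. The summed unscaled signal of the 10 genes was 155 to 226 in early Dunn, 1897 to 2567 in late Dunn, 30.8 to 64.4 in early LM8 and 1721 to 2070 in late LM8 cells. The late cells of both lines lay above all early arrays. Most of the late sums came from Nlrp4c, the gene that led to the choice of the group. Its brighter probe gave 1581 to 2373 in late Dunn and 1362 to 1645 in late LM8 cells. Nothing is therefore read from the sums about the other members. As RNA of whole cultures was measured, more cells with a transcript and more transcript per cell cannot be told apart.

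**Figure D1:**
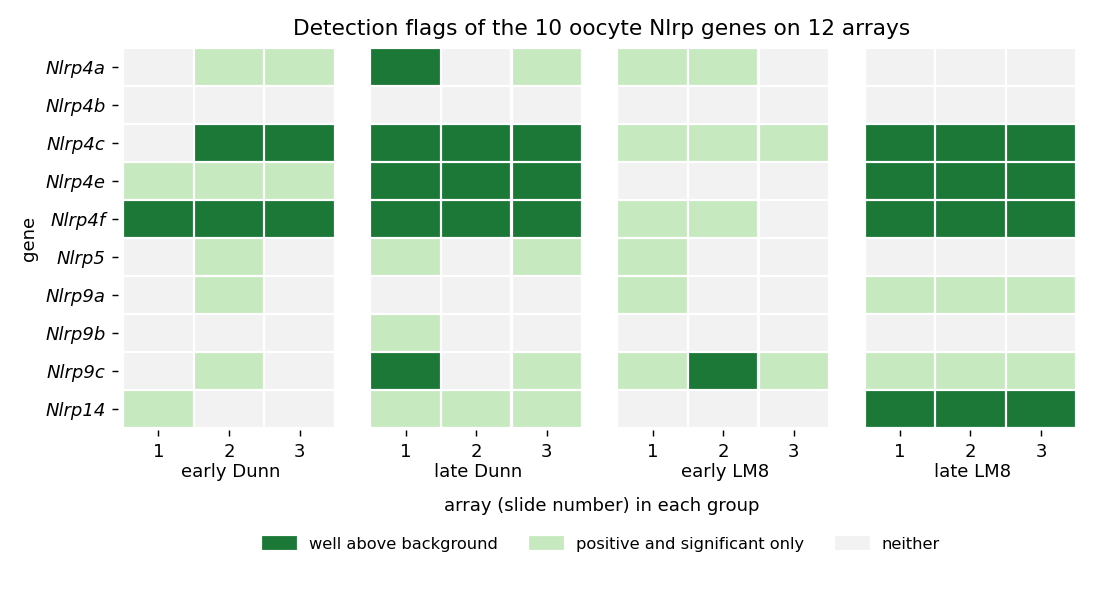
Detection of the 10 oocyte Nlrp genes (rows) on the 12 arrays (columns, 3 slides in each group), with dark green for a signal well above background, light green for one that was only positive and significantly different from background, and grey for neither. Dark cells fill whole groups for 1 gene in early Dunn, 3 in late Dunn, 0 in early LM8 and 4 in late LM8 cells.

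Nlrp4c belongs to the branch of Nlrp4 paralogs that multiplied in rodents and was measured with 2 probes. Its brighter probe (A_55_P2016882) had signals of 6.90, 78.3 and 57.8 in early Dunn cells and of 1581, 2373 and 1743 in late Dunn cells. In early LM8 cells the signals were 2.98, 6.73 and 2.78, and in late LM8 cells 1362, 1461 and 1645. The late arrays of both lines lay far above all early arrays, and no 2 groups overlapped on the scaled log2 level. From low to high, this level was -8.20 ± 0.58 in early LM8, -3.69 ± 1.86 in early Dunn, 0.04 ± 0.36 in late LM8 and 1.24 ± 0.15 in late Dunn cells (mean ± SD, n = 3).

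A second probe of Nlrp4c (A_55_P2105195) ordered the groups in the same way. Its signals were 45.8, 35.4 and 17.8 in early Dunn, 521, 599 and 445 in late Dunn, 3.31, 8.61 and 3.23 in early LM8 and 322, 538 and 350 in late LM8 cells. Array 1 of the early Dunn cells was the lowest of its group with the first probe and the highest with the second, and on this array neither probe was called well above background.

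The comparison of late with early passage Dunn cells asks whether the gene group changed in culture in the parental line, whose arrays the rule of choice did not use, although results of these arrays were known. With the first probe, Nlrp4c was 30.4-fold higher in late passage (log2 difference 4.93, SE 0.94), and with the second 8.64-fold (log2 difference 3.11, SE 0.39), and both differences met an unadjusted level of 0.05 in limma. After Benjamini-Hochberg adjustment over all probes by limma, neither did (adjusted p = 0.428 and 0.214). Array 1 of the early Dunn cells was not well above background, and the log2 difference of the first probe was 4.18 with dim signals set to the lowest one called well above background and 3.87 without that array. Under a model-based background correction the differences were 3.13 and 1.06, and the second no longer met the unadjusted level. The late cells were higher on 3 of 3 slides, by 6.87, 4.25 and 3.66 with the first probe and by 2.54, 3.41 and 3.39 with the second.

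The adjusted values of Nlrp4c depended on the arrays and probes that entered the fit. A filter kept probes well above background on all early or all late Dunn arrays, which Nlrp4c passed through the late arrays alone. With it, the adjusted p by limma was 0.0586 for the first and 0.0142 for the second probe. In an analysis without both Dunn arrays of slide 1, chosen after the data had been seen, the log2 difference was 3.95 with the first and 3.40 with the second probe (limma, adjusted p = 0.0129 and 0.0217). In that analysis Nlrp4c was the 1 member with an adjusted p below 0.05 by limma, which 0.573% of all genes had. It was also the 1 member in a single fit over all 12 arrays, where 1.78% of all genes passed. That fit takes part of its spread from the LM8 arrays used in the choice, so it is no independent test of Nlrp4c. Over all alternatives run, the adjusted p by limma lay between 0.0129 and 0.984 for the first and between 0.00340 and 0.984 for the second probe. The direction was the same in each of them.

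At more than 2-fold and an unadjusted p below 0.05 by limma, 1 of the 10 genes, Nlrp4c, was higher in late Dunn cells, while 1.33% of all genes were, and 0 were lower, while 3.53% of all genes were. No member passed an adjusted p of 0.05, which 1 gene of all 20067 tested did (0.00498%). With the slide as a block, none met that adjusted level, and 4 members met more than 2-fold at an unadjusted p below 0.05 in limma, compared with 16.0% of all genes. Of these, Nlrp4c and Nlrp4e were higher and Nlrp9a and Nlrp14 lower, and neither of the lower genes was well above background on any Dunn array. The adjusted p by limma in this fit was 0.211 for both probes of Nlrp4c and for Nlrp4e. The median difference of the 10 genes was -0.45 and that of all genes -0.34 on the scaled log2 level.

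In LM8 cells the late signals of Nlrp4c exceeded the early ones by 8.24 on the scaled log2 level with the first and 6.08 with the second probe. Since early LM8 cells were not well above background on any array, the fold is only bounded. A bound takes the mean of the brighter group against that of the dimmer one, with each dim array set to the lowest signal it called well above background or to the probe's own if higher. By this bound, Nlrp4c was at least 93.7-fold higher in late passage with the first probe and at least 24.8-fold with the second. The early LM8 cells were in turn at least 7.08-fold and 6.90-fold lower than the early Dunn cells, where 2 of 3 arrays measured the gene.

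In late passage the lines had come closer. On the scaled level and with the first probe, Nlrp4c was 2.30-fold lower in late LM8 than in late Dunn cells. With the second probe it was 2.40-fold lower, and the scaled levels did not overlap with either probe. The median difference of all genes in this comparison was -0.55 on the scaled log2 level. The unscaled signals of the late groups overlapped with both probes. The difference of Nlrp4c became smaller on the unscaled signals of the deposited table, where it was -0.33 on the log2 scale with the first probe.

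**Figure D2:**
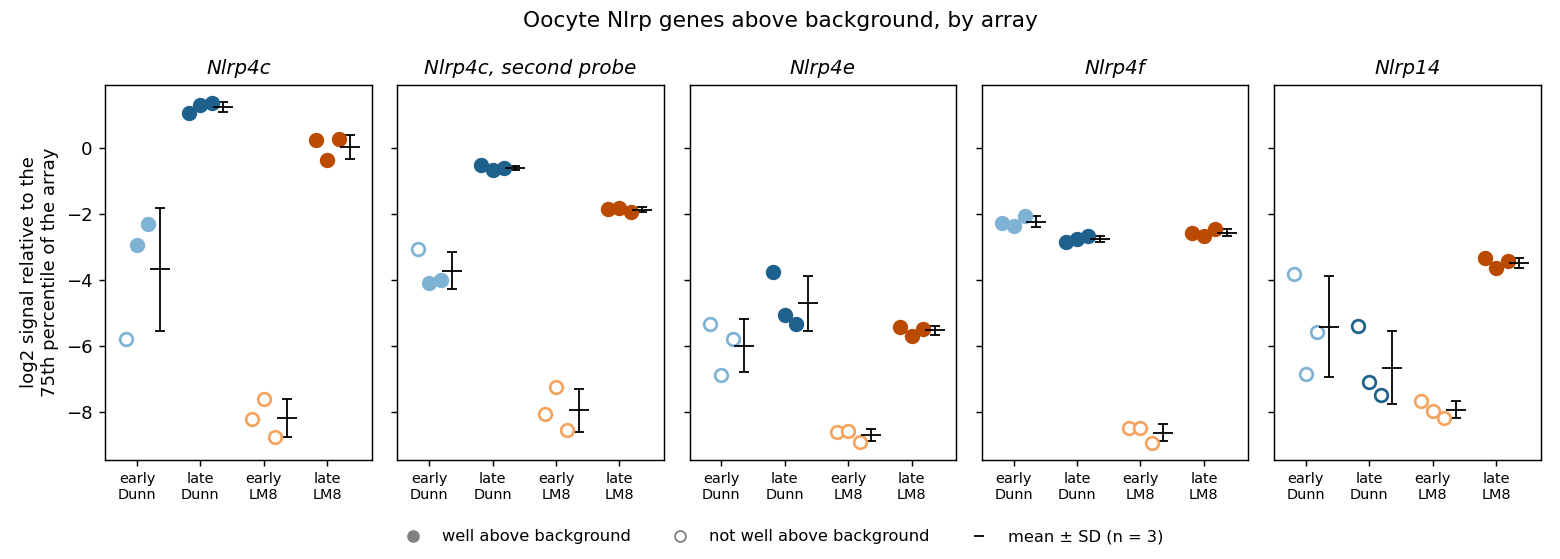
Scaled log2 signals of the oocyte Nlrp genes that were above background in at least 1 group, with 1 point for each array (filled, well above background; open, not) and the mean ± SD of 3 arrays beside it. Nlrp4c is high in both late groups, Nlrp4f is low only in early LM8 cells, and Nlrp14 is well above background only in late LM8 cells.

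Nlrp4f, a component of the subcortical maternal complex of mouse oocytes, was the only member well above background on all Dunn arrays of both passages. Its signals were 78.8, 116 and 69.1 in early Dunn, 104, 142 and 108 in late Dunn, 2.45, 3.67 and 2.45 in early LM8 and 195, 296 and 249 in late LM8 cells. All arrays of 3 groups were well above background and no array of early LM8 cells was. On the scaled log2 level, late LM8 (-2.57 ± 0.12) and late Dunn cells (-2.76 ± 0.10) overlapped, early Dunn cells (-2.24 ± 0.17) were slightly above both, and early LM8 cells (-8.65 ± 0.26) were far below.

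Nlrp4f was at least 15.3-fold higher in late than in early LM8 cells and at least 19.3-fold lower in early LM8 than in early Dunn cells. In Dunn cells the late minus early difference was -0.52 (SE 0.29, limma, adjusted p = 0.781), and it did not meet the unadjusted level either, which it did in 3 of the alternatives run. Its sign depended on scaling, since the unscaled signals gave 0.45. The difference between late LM8 and late Dunn cells, 0.19 on the scaled and 1.06 on the unscaled log2 level, likewise followed the scaling.

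Nlrp4e, which is required for normal development of the early embryo, was seen at low signals. Its brightest probe (A_55_P1971739) gave 9.56, 5.12 and 5.20 in early Dunn, 55.9, 28.6 and 17.0 in late Dunn, 2.28, 3.44 and 2.51 in early LM8 and 27.0, 36.6 and 30.4 in late LM8 cells. The late arrays of both lines were well above background, the early arrays were not, and the groups of each line did not overlap. In Dunn cells they nearly met on the scaled log2 level. The highest early value, on array 1 and not well above background, was -5.337, and the lowest late value, on array 3, was -5.334. In late LM8 cells the signal was at least 1.96-fold higher than in early LM8 cells.

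For Nlrp4e in Dunn cells, the difference was 1.28 (SE 0.62, limma, adjusted p = 0.781), which met the unadjusted level of 0.05 in limma with the slide as a block but not without it. The measured bound was below 1, so that no fold is given, because the lowest signal called well above background on array 1 was 32.3 for the early and 36.4 for the late Dunn passage and not more than 16.7 on any array of slides 2 and 3. The direction turned when dim signals were set to that floor (-0.02) and under a model-based background correction (-0.85). The other 2 probes of Nlrp4e were well above background on 1 array of late LM8 cells and on none, and are no further support for the gene. Whether probes of the closely related Nlrp4 genes bind each other's transcripts was not tested, as the files hold no probe sequences.

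Nlrp14, a gene of oocytes and of male germ cells that is needed for fertility, was well above background in late LM8 cells alone. By the weaker flag, for a positive and significant signal, it was also detected on all arrays of late Dunn cells and array 1 of early Dunn cells. Its signals were 27.5, 5.21 and 5.95 in early Dunn, 17.9, 6.94 and 3.81 in late Dunn, 4.37, 5.23 and 4.13 in early LM8 and 114, 151 and 125 in late LM8 cells. All 3 late LM8 arrays were above every other array, and the other 9 arrays were not well above background. The late LM8 cells were at least 8.14-fold higher than early LM8 cells and at least 4.51-fold higher than late Dunn cells.

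**Figure D3:**
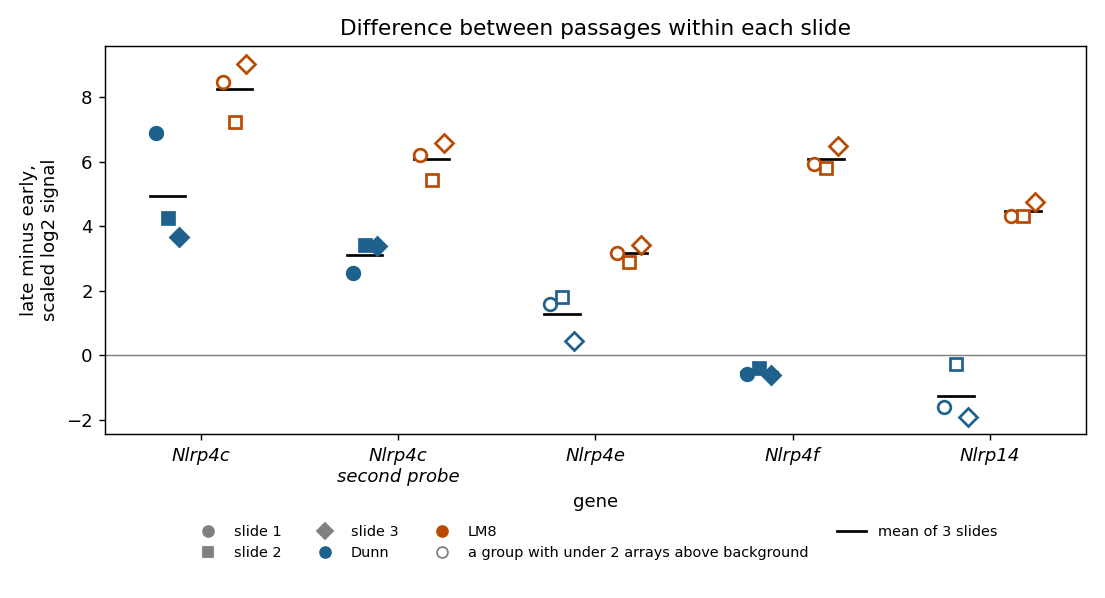
Late minus early difference on the scaled log2 level within each of 3 slides for Dunn (blue) and LM8 cells (orange), with a line at the mean and open symbols where a group had fewer than 2 arrays well above background. In LM8 cells all 3 slides are positive for each probe, whereas in Dunn cells they are positive for Nlrp4c and Nlrp4e and negative for Nlrp4f and Nlrp14.

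Between the passages, 4 of the 10 genes were more than 2-fold higher in late LM8 cells without overlap and with the late arrays well above background, which applied to 1.90% of all genes. With dim signals set to the lowest one called well above background the count was 3, as Nlrp4e then differed by 0.97. None was lower by the same rule (2.23% of all genes). In Dunn cells 2 of the 10 met this rule as higher, Nlrp4c and Nlrp4e (1.66% of all genes), and none as lower (2.86%). The early signals of Nlrp4e were below background, and its difference in Dunn cells was -0.02 with dim signals set to that floor and -0.85 under the model-based correction. The median difference of the 10 genes in LM8 cells was -0.18, as was that of all genes, and the other 6 members were not well above background on all arrays of either group. The LM8 values contain the gene that led to the choice of the group, and nothing is read from its share.

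The lines were also set side by side at matched passage, again as a description, since the LM8 arrays are shared. At early passage 1 member, Nlrp4f, was more than 2-fold lower in LM8 than in Dunn cells by this rule (7.80% of all genes), and 0 were higher (4.67%). At late passage 1, Nlrp14, was higher in LM8 (5.06%) and 1, Nlrp4c, was lower (5.70%). The median difference of all genes, LM8 minus Dunn, was -0.76 at early and -0.55 at late passage on the scaled log2 level. Without array 2 of the late LM8 cells no member was lower, and without array 3 of the late Dunn cells 2 were. Without array 1 of the early Dunn cells 2 members were lower in early LM8 cells.

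The remaining 6 genes gave little or no signal. Nlrp4b, Nlrp5, Nlrp9a and Nlrp9b were not well above background on any of the 12 arrays, with any probe. Signals of Nlrp5, which encodes the MATER protein of the maternal complex, ranged from 2.26 to 14.1, and those of Nlrp4b from 2.31 to 8.56. Nlrp4a was well above background on array 1 of late Dunn cells alone, with a signal of 66.3 by 1 of its 2 probes, compared with 10.8 by the other probe on the same array. Nlrp9c reached 99.8 on that array and 25.4 on array 2 of early LM8 cells, and the other 10 arrays lay between 2.51 and 7.12. Both late Dunn detections thus came from the array on which 1933 genes stood alone, and they were not repeated on slides 2 and 3.

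The neighbours of the detected members were examined on the chromosome. Nlrp4c lies between Vmn1r65, a vomeronasal receptor gene, and Zfp787, a zinc finger gene, in the order of genes with a probe. The late minus early differences of Zfp787 were -0.34 in Dunn and -0.09 in LM8 cells, and those of Vmn1r65 0.14 and -0.41. The nearest gene on the other side of Nlrp4e from the vomeronasal receptor Vmn1r157 is Nlrp5, which stayed at background. Beside Nlrp4f, Zfp369 gave -0.69 in Dunn and -0.16 in LM8 cells. Around Nlrp14 lie olfactory receptor genes, which were not well above background on all arrays of any group. Of 23 neighbours outside the members, 3 on each side of each of the 4 genes, 0 met the rule in either direction in either line. Of all genes, 1.66% were higher and 2.86% lower by it in late Dunn cells. The shares were 1.90% and 2.23% in late LM8 cells, and at such shares 0 of 23 is not unusual. Of the neighbours, 6 were well above background on every array with an unflagged spot and 10 on none.

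**Figure D4:**
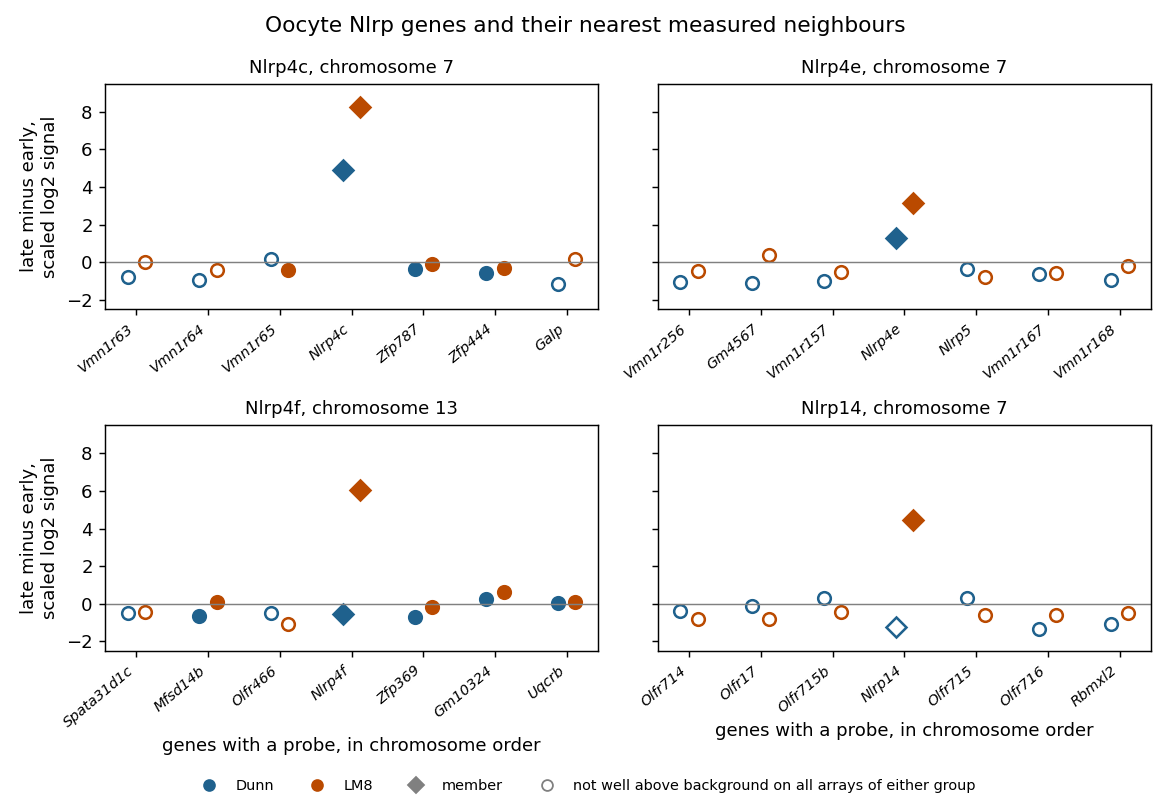
Late minus early difference on the scaled log2 level in Dunn (blue) and LM8 cells (orange) for 4 oocyte Nlrp genes (diamonds) and the 3 nearest genes with a probe on each side (circles), with open symbols where neither group was well above background on all its arrays. The diamonds of LM8 cells lie between 3.16 and 8.24, and the highest circle lies at 0.63.

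Other oocyte genes did not form a common pattern with the members. Of the 5 partners of the subcortical maternal complex on a list, Tle6 and Zbed3 were well above background on all 12 arrays, Ooep and Khdc3 on no whole group, and Padi6, a peptidylarginine deiminase of oocyte cytoplasmic lattices, on all arrays of late Dunn cells and 1 array of early LM8 cells. Padi6 was 3.10 higher in late than in early Dunn cells on the scaled log2 level (limma, adjusted p = 0.316), which is at least 2.89-fold. In late LM8 cells, where Nlrp4c, Nlrp4e, Nlrp4f and Nlrp14 were measured, Padi6 was not well above background and at least 12.9-fold lower than in late Dunn cells. No other gene of this list met the level of more than 2-fold and an unadjusted p below 0.05 by limma in Dunn cells. Thus 1 of 5 was higher (1.33% of all genes) and 0 were lower (3.53%), with a list median of -0.71.

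Of 16 oocyte factors and zona genes, 0 were higher (1.33% of all genes) and 0 lower (3.53%) in Dunn cells by the same level, and the median was -0.43. Gdf9, a growth factor secreted by oocytes, was well above background on all 12 arrays at scaled levels from -3.39 to -2.89 (group means), and Npm2, an oocyte nucleoplasmin, in both late groups. Of the 4 oocyte markers checked (Zp3, Gdf9, Figla and Oosp1), only Gdf9 reached all arrays of a group. Zp3 was seen on array 1 of late Dunn cells alone, together with Lhx8, Mos and Zar1. The summed unscaled signal of the 4 markers was 58.3 to 91.5 in early Dunn, 75.0 to 215 in late Dunn, 156 to 191 in early LM8 and 131 to 176 in late LM8 cells. The summed unscaled signal of 4 macrophage markers with a probe was 61.3 to 134 in early Dunn, 193 to 227 in late Dunn, 273 to 429 in early LM8 and 311 to 492 in late LM8 cells, and its part in the results was not tested. Of 15 other germline genes, none changed at this level in Dunn cells, where 1.33% of all genes were higher and 3.53% lower. None met the rule in LM8 cells, where 1.90% of all genes were higher and 2.23% lower. At such shares 0 is not unusual in lists of this size.

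A list of other NLR genes and inflammasome components was compared in the same way. The level of more than 2-fold at an unadjusted p below 0.05 in limma was applied to 23 NLR and inflammasome genes with a probe. In late Dunn cells 0 gained and 4 lost signal by it, compared with 1.33% and 3.53% of all genes. The 4 genes were Casp1, Casp4, Naip2 and Ciita, and none passed after adjustment. None of the 4 is an Nlrp gene. Ciita was well above background on only 2 of 3 early and 1 of 3 late Dunn arrays. Casp1, the inflammasome protease, was lower by 1.57 in Dunn (limma, adjusted p = 0.446) and by 1.62 in LM8 cells on the scaled log2 level. Casp4, the caspase of the noncanonical inflammasome, differed by -1.77 in Dunn (limma, adjusted p = 0.463) and by -3.61 in LM8 cells. Nlrc5, an activator of MHC class I genes, differed by -0.75 and -1.88. The median of the list was -0.64 in Dunn and -0.24 in LM8 cells, compared with -0.34 and -0.18 for all genes.

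Which genes had a pattern most like that of Nlrp4c was asked over the 12 arrays, with 1 probe for each of 11287 genes outside the members that had an unflagged spot on every array and were well above background on all arrays of at least 1 group. The 5 highest Pearson correlations of the scaled log2 signals belonged to Gm10487 (0.965), Rhox5 (0.964), Gm10439 (0.948), Rhox2c (0.942) and Lyz1 (0.936). The first 4 are on the X chromosome, and Rhox5 and Rhox2c are homeobox genes of reproductive tissues. The second probe of Nlrp4c correlated with the first by 0.950, Nlrp4e by 0.872, Nlrp4f by 0.818 and Nlrp14 by 0.464, while the 6 members at background lay between -0.07 and 0.16. At background the scaled levels also differed between groups, as for Nlrp4b with -6.83 in early Dunn and -8.49 in early LM8 cells. Nothing is read from the contrast between detected and undetected members. These coefficients are a description over 12 arrays that fall into 4 groups, share their slides and were scaled to the same percentile.

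Rhox5 was above background in all groups, in contrast to Nlrp4c. Its scaled log2 level was -4.52 ± 0.23 in early LM8, -0.44 ± 0.14 in early Dunn, 1.33 ± 0.11 in late LM8 and 2.96 ± 0.11 in late Dunn cells (mean ± SD, n = 3), which is the order of the groups for Nlrp4c. As Rhox5 was picked by its correlation with Nlrp4c over these arrays, nothing is read from the shared order. Gm10487 and Lyz1 had this order too. In Gm10439 and Rhox2c, late LM8 cells (-2.42 and 0.69) were above late Dunn cells (-2.71 and 0.04).

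**Figure D5:**
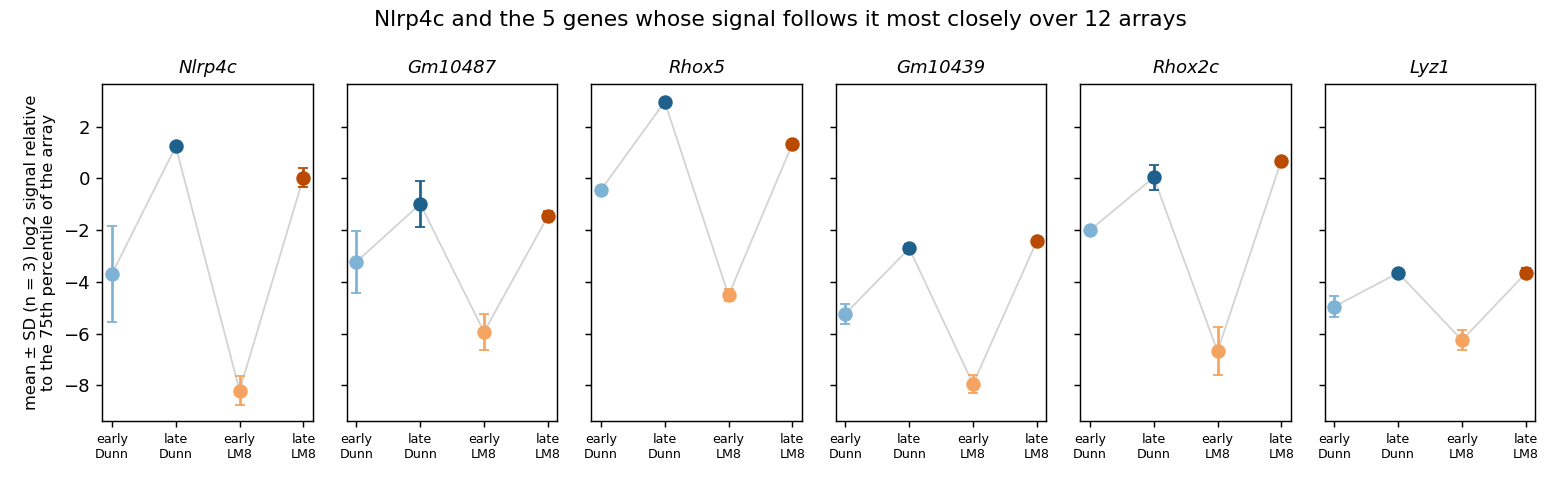
Scaled log2 levels (mean ± SD of 3 arrays) in the 4 groups for Nlrp4c and for the 5 genes outside the group that correlated best with it. In all 6 panels early LM8 cells are lowest and early Dunn cells are below both late groups.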

How the data were processed

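RNA of 12 cultures was hybridized to 1-colour Agilent mouse 4x44k v2 arrays. Per the file headers and labels, the authors deposited Agilent Feature Extraction 10.7.3 output for each array, with the processed signal as an intensity after background subtraction. Their table of all arrays holds the same intensities, rounded and unscaled. The detection flags were deposited with the intensities by the authors' scanner software. Depth is not defined for arrays, whose number limits the precision. The 3 replicates of a group are, per the labels of the series, separate cultures.

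From these files, control spots and outlier spots were left out, spots were averaged into 39429 probes and each array's log2 signals were centred on its 75th percentile. Accessions were matched to RefSeq (GRCm38), which named 26581 probes (67.4%) for 20144 genes. No coordinates of that annotation are given besides the promoters, as the arrays were designed on another build. A gene with several probes was represented by the one with the highest mean over all arrays.

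The test of late against early Dunn cells used the 6 Dunn arrays and the functions lmFit and eBayes of limma (version 3.58.1, R 4.3.3), with Benjamini-Hochberg adjustment over all probes, which was checked on simulated data. The simulated arrays were drawn independently, so the check does not cover the correlation of arrays within a slide. LM8 values and differences between the lines are descriptions, because the group was chosen from LM8 arrays. A descriptive call needed more than 2-fold, no overlap, and all arrays of the higher group well above background. The named genes were all members, list genes well above background in a whole group, the 5 genes most correlated with Nlrp4c and 3 neighbours on each side. Some list genes below that level are named as well, together with their detection. The members and lists were chosen with earlier results of these data known.

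Replicate numbers mark the slide. Deviations from the group means correlated between same-numbered Dunn arrays by 0.679, 0.636 and 0.227, so the numbers pair them, and by 0.277, -0.02 and 0.132 in LM8 cells. Alternatives were quantile normalization, normexp with an offset of 50 (on median signals, as the files hold no mean signals), the deposited table, a floor, a filter on dim probes, the slide as a block, 1 fit over 12 arrays, the methods' t-test and leaving out arrays.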

Additional observations from a re-analysis of the deposited data

Results flagged for a closer look

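Nlrp4f differed in direction between the lines. The late minus early difference on the scaled log2 level was -0.517 in Dunn and 6.07 in LM8 cells, with all 3 slides negative in Dunn and all 3 positive in LM8 cells. The difference between the lines was not tested, as LM8 arrays led to the choice of the genes. On the unscaled signals the Dunn value was 0.45, so the opposite sign depends on scaling.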

How the results depend on the processing

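In late versus early Dunn cells, 1 member (Nlrp4c) was higher at more than 2-fold and an unadjusted p below 0.05 in limma. This count was 2 in 1 fit over all 12 arrays, with the replicate block and in the deposited table. The count of lower members, 0, became 2 with the replicate block, which rests on the pairing of the slides, without array 1 of late Dunn cells and without slide 1. The block changed no call at an adjusted p. At an adjusted p below 0.05 it was 1 in place of 0 in the fit over 12 arrays, which draws on the LM8 arrays, and without slide 1. Leaving out 1 Dunn array gave 1 higher member each time, 0 to 2 lower and 0 after adjustment. Over all probes, 1 passed an adjusted p of 0.05 by limma (2098 an unadjusted p of 0.05), 0 with the block, 2 by the methods' t-test, 243 after the filter on dim probes, 92 after quantile normalization, 522 in the fit over 12 arrays and 159 without slide 1.

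Reversed values were those of Nlrp4e in Dunn cells with a floor (-0.022) and with normexp (-0.85), and of Nlrp4f in the deposited table (0.45). The cause was not tested. Higher members in late LM8 cells were 2 in place of 4 with normexp and 4 each time 1 array was left out. Late LM8 against late Dunn cells gave 0 higher with normexp, 2 higher and 0 lower in the deposited table, and 0 to 2 lower when 1 array was left out. Early LM8 against early Dunn cells gave 1 to 2 lower when 1 array was left out. By the flag for a positive and significant signal, 2 members in place of 1 were detected in early Dunn, 4 in place of 3 (adding Nlrp14) in late Dunn, 2 in place of 0 in early LM8 and 6 in place of 4 in late LM8 cells. Nlrp4f in Dunn cells met the unadjusted level of 0.05 after the filter on dim probes, in the fit over 12 arrays and by the methods' t-test. Higher members in late LM8 cells were 3 with a floor.

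Of the other counts, 100 stayed within 1.5 times. Of the differences of single genes, 144 kept their call or moved by less than 1 SD, 28 moved by more, and 5, all of Nlrp4c in Dunn cells, came to pass the adjusted level. Between late LM8 and late Dunn cells, the difference of Nlrp4e became 0.05 in the deposited table and that of Nlrp4f -0.11 with normexp, both of the other sign. The 6 undetected members lie near the lowest measurable signal, where a difference is not read as a change of the gene. Scaling moved the median of all genes in Dunn cells from 0.62 to -0.34.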
